A study of Homo sapiens with 6 samples.

Results

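The cytosolic ribosomal protein genes are the genes whose products, together with ribosomal RNA, form the small and the large subunit of the cytoplasmic ribosome. They were chosen by gene symbol, as the rows named RPL or RPS with a number, with RPLP0, RPLP1, RPLP2 and RPSA added, and without RPS18, the Y-linked symbols and the pseudogene symbols. This gave 84 of the 54259 genes in the table, of which 31 belong to the small and 53 to the large subunit. RNA came from MDA-MB-231, an established human breast cancer cell line, in 2 groups of 3 libraries. MDA-MB-231 shBry cells carried a short hairpin RNA against brachyury, a T-box transcription factor, and MDA-MB-231 shNC cells carried a control hairpin, which leaves no group without a hairpin. The labels give no treatment or time, and do not say whether the libraries came from separate cultures or clones, so that p-values measure the spread between these libraries, which may be technical. The series' description calls the RNA pericardial, whereas the labels name MDA-MB-231.

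Between 19319411 and 22985371 reads per library were counted on genes, and replicate libraries were not equal within sampling noise (chi-square per degree of freedom of 5.004 to 16.79). Brachyury, listed as T, was at 0 counts in all 6 libraries, so the knockdown itself could not be seen in these counts. The 8 genes listed as expressed in MDA-MB-231 had counts in every library, from S100A4 (176 to 379) and ZEB1 (415 to 1019) to VIM (61637 to 86917). Of the 7 listed as low, ESR1, PGR and CDH1 had at most 2 counts per library, KRT19 7 to 37, EPCAM 21 to 113, GATA3 201 to 313 and KRT8 4817 to 20112. The 8 leukocyte and blood markers had at most 3 counts. Of 12 mesothelium and heart markers, MYH6, MYH7, NPPA and ITLN1 were at 0, ACTC1, TNNT2, UPK3B and WT1 had at most 7 counts, TNNI3 7 to 22, CALB2 14 to 222, LRRN4 61 to 185 and MSLN 552 to 1047. In bulk RNA, fewer cells of a kind and less RNA per cell cannot be told apart.

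Ribosomal protein mRNAs are among the most abundant of a growing cell, and their products are needed in nearly equal numbers, since a ribosome holds a single copy of most of them. Most of these mRNAs begin with a cytosine followed by an unbroken run of pyrimidines, the 5′ terminal oligopyrimidine (TOP) sequence, through which mTOR signaling and the LARP1 protein control their translation. A few ribosomal proteins have a paralog coded by another gene, which can take the place of the usual protein in some ribosomes or tissues. Many of the genes also carry small nucleolar RNAs in their introns and have numerous processed pseudogenes, copies of the spliced mRNA inserted elsewhere in the genome.

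The start sites are shown for parents with their paralogs and for members with large differences, because the TOP sequence is the feature these genes have in common. RefSeq start windows on GRCh38.p14 were matched for 67 of the 84 genes. A TOP start was counted where the annotated first base was a C followed by at least 4 further C or T on the strand of the gene. It was found in 46 of the 67 genes (68.7%), against 4.99% of 27238 other genes and 6 of 69 mitochondrial ribosomal protein genes (8.70%). Each line gives 30 bases, 5′ to 3′, with the pyrimidine run from the annotated start in capitals, and a line all in lower case has no such run.
RPL22, chr1:6199576-6199605, minus strand: cgctcacctcCCTTTCTaactccgctgccg
RPL22L1, chr3:170870176-170870205, minus strand: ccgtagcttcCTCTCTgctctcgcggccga
RPL26, chr17:8383174-8383203, minus strand: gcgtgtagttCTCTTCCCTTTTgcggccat
RPL26L1, chr5:172958719-172958748, plus strand: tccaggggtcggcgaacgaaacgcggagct
RPS27, chr1:153990752-153990781, plus strand: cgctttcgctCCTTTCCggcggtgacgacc
RPS27L, chr15:63157458-63157487, minus strand: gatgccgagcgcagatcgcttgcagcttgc
RPL36A, chrX:101391001-101391030, plus strand: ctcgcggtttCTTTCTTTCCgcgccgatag
RPL36AL, chr14:49620607-49620636, minus strand: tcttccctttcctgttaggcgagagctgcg
RPL10A, chr6:35468391-35468420, plus strand: aagacatgctagtctcttttccggttagcg
RPS12, chr6:132814559-132814588, plus strand: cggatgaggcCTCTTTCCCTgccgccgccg
RPS14, chr5:150449720-150449749, minus strand: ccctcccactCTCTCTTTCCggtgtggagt
RPL7A, chr9:133348208-133348237, plus strand: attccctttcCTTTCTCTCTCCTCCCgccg
RPL4, chr15:66504836-66504865, minus strand: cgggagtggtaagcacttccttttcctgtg
Of the 4 parents printed, each has a TOP start, and of their paralogs only RPL22L1 has one in these windows. Among the parents not printed, RPL10 and RPL39 have one, RPL3, with a run of 4 bases, has none, and RPL7 has no window. The windows of RPL10A and RPL4 hold pyrimidine runs that do not begin at the annotated first base. That of RPL36AL holds a run that crosses it, with 3 bases from the annotated start on. In each of these windows, a start placed a few bases away would change the match.

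The question of the design was which genes differ between brachyury-knockdown and control cells. Over the ribosomal protein genes, small rises outnumbered falls, RPL22L1 rose 8.29-fold, and genes such as RPL4, RPS14 and RPL22 fell by less than 2-fold. A gene was called when its Benjamini-Hochberg adjusted p (edgeR's quasi-likelihood test over all tested genes) was below 0.05 and its fold change above 1.5. The expression filter left 82 of the 84 genes among 15277 tested genes. The other two, RPL3L and RPL10L, were at 0 counts in every library, which allows up to 3 counts, or 0.131 to 0.155 CPM (counts scaled to library size), for counting error only. Of the 82 genes, 9 were called higher in shBry (11%) and 5 lower (6.1%), beside 17.1% and 15.2% over all tested genes. The 14 called genes were 17.1% of the family, against 32.4% of all tested genes.

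Without the fold change limit the picture differed. An adjusted p below 0.05 was reached by 39 genes that were higher in shBry (47.6%) and 11 that were lower (13.4%), where all tested genes gave 28% and 25.3%, and 32 did not pass. The 3 shBry values lay above all 3 shNC values for 37 genes (45.1%, against 30.6% of all tested genes) and below them for 10 (all tested genes, 28.9%). The median log2 fold change of shBry relative to shNC was 0.21, with quartiles of -0.07 and 0.40, beside 0.03 for all tested genes. Among abundant genes, with a mean level of 100 CPM or more, 34 of 69 ribosomal protein genes (49.3%) were higher at an adjusted p below 0.05 and 9 were lower (13%). Of all 2193 tested genes of that level, 33.3% were higher and 33.7% were lower, with a median of 0.002.

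**Figure D1:**
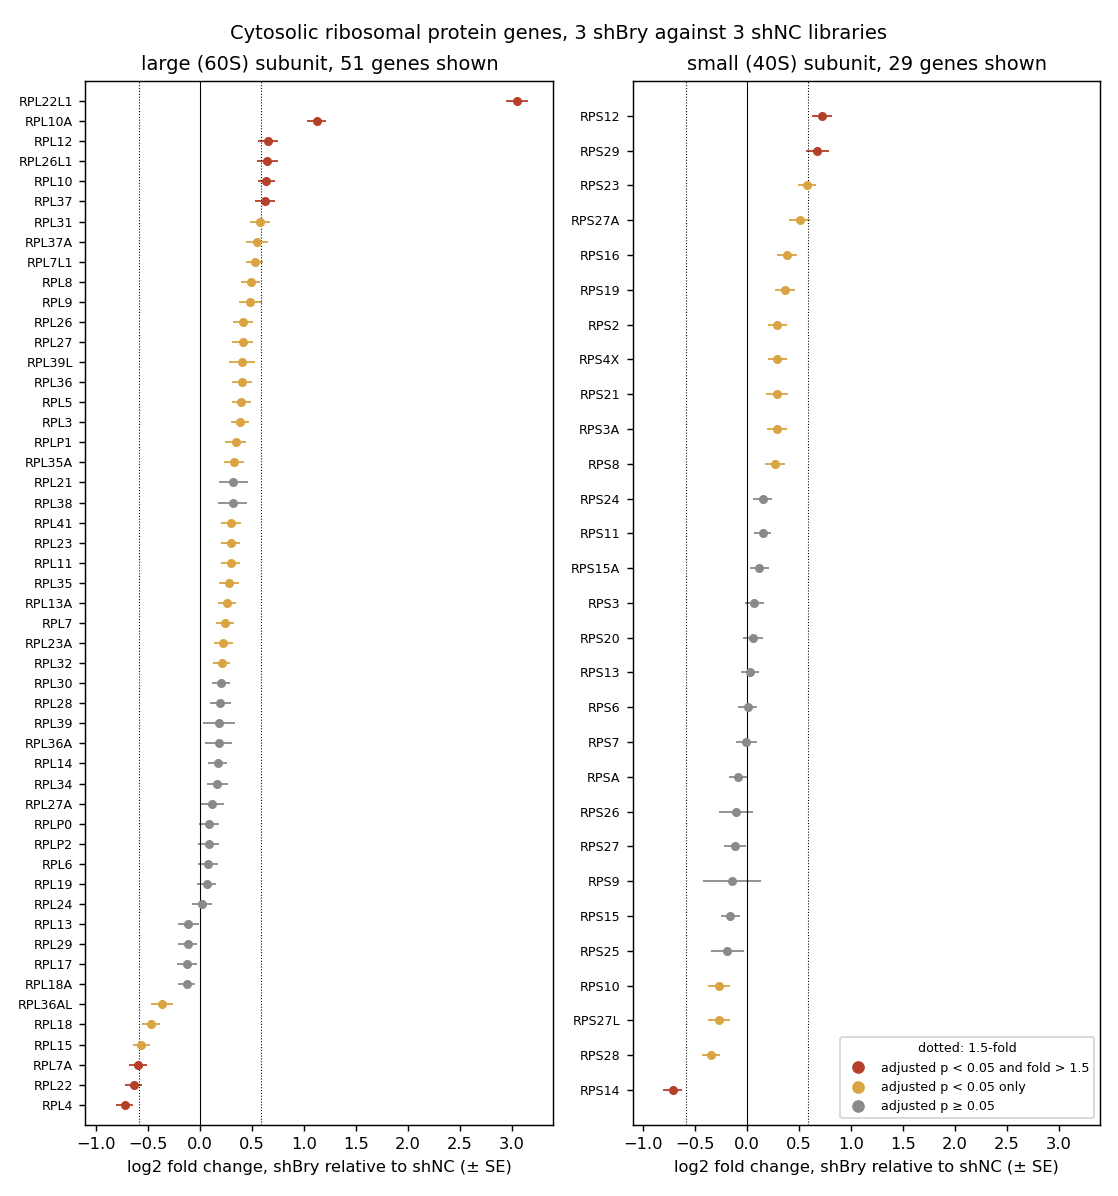
Log2 fold change of shBry relative to shNC with its standard error for 80 of the 82 tested genes, 51 of the large subunit on the left and 29 of the small subunit on the right, ordered by value. Dotted lines mark a 1.5-fold change, red points 12 called genes, yellow points genes with an adjusted p below 0.05 inside the limit and grey points the rest. RPL22L1 lies at 3.05, and 59 of the 80 points lie above 0.

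The large subunit, with 51 of the 82 tested genes, held most of the rises. Of those 51 genes, 6 passed both limits as higher (11.8%) and 3 as lower (5.88%), beside 17.1% and 15.2% of all tested genes. At an adjusted p below 0.05, 27 were higher (52.9%) and 6 lower (11.8%), where all tested genes gave 28% and 25.3%. The median log2 fold change was 0.26. Of the 31 genes of the small subunit, 3 were called higher (9.68%) and 2 lower (6.45%). At an adjusted p below 0.05, 12 were higher (38.7%) and 5 lower (16.1%), and the median was 0.07. Whether the subunits differed was not tested. Genes with a TOP start had a median of 0.19 (46 genes, 4 called higher, or 8.7%, and 3 lower, or 6.52%). Genes whose windows hold no TOP start had 0.07 (20 tested genes, 3 higher, or 15%, and 1 lower, or 5%). The latter group rests on the annotated first base and includes RPL10A, RPL4 and RPL36AL, whose windows hold pyrimidine runs near it. Genes with a small nucleolar RNA gene inside (28) and those without (54) had medians of 0.21 and 0.22.

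Libraries of shBry did not rise alike. The 84 genes took 7.12%, 6.06% and 6.75% of all counts in shBry replicates 1, 2 and 3, and 5.94%, 6.08% and 5.84% in shNC replicates 1, 2 and 3. Replicate 2 of shBry lay within the shNC range, and the other two lay above it. The means were 6.64% ± 0.534 (SD, n = 3) and 5.95% ± 0.12 (SD, n = 3), a difference of 0.691 percentage points that an exact two-sided permutation test gave p = 0.2, where 3 against 3 libraries cannot go below 0.1. The median log2 difference from the shNC mean over the 82 tested genes was 0.33, 0.02 and 0.26 in the shBry replicates and between -0.02 and 0.03 in the shNC replicates. shBry replicate 2 gave the lowest of the 3 shBry values for 80 of the 82 genes, where it did so for 42.9% of all tested genes. All 9 genes called higher nevertheless lay above every shNC library in shBry replicate 2. Without that library, 13 genes were called higher and 3 lower, beside 5016 calls among all 15493 tested genes, and the median was 0.28. Without shBry replicate 1, the counts were 5 and 6, beside 5025 calls among all 15622 tested genes, and the median was 0.15. The part of this library in the results beyond these values was not tested.

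**Figure D2:**
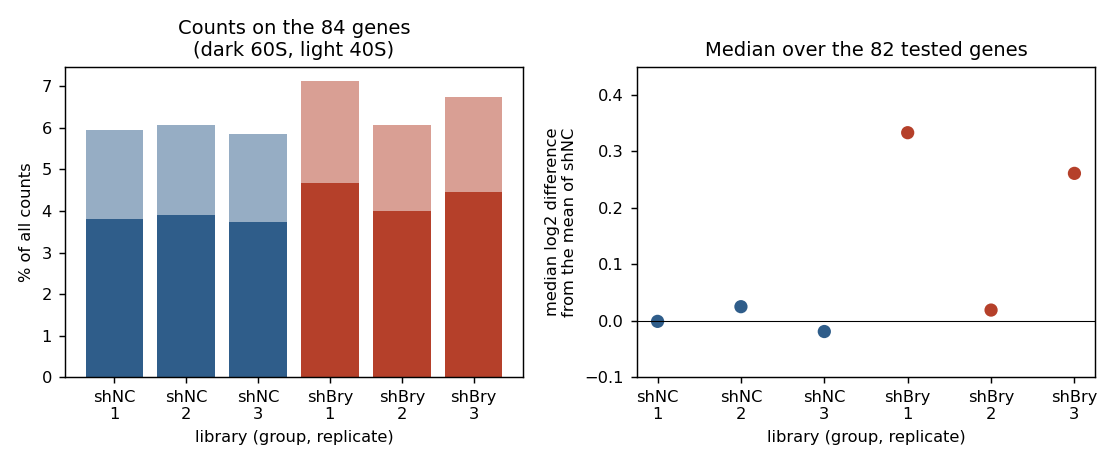
Left, percentage of all counts on the 84 genes in each library, the dark part for the large and the light part for the small subunit, shNC in blue and shBry in red. Right, median log2 difference from the shNC mean over the 82 tested genes. shBry replicate 2, at 6.06% and 0.02, lies with the shNC libraries in both plots.

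RPL22L1, on chromosome 3 of GRCh38 from 170864875 to 170870483, encodes the paralog of RPL22 and had the largest difference of the family. It had 22.2, 24.6 and 28.02 CPM in the shNC libraries and 226, 188 and 205 CPM in the shBry libraries. The groups were far apart, and the log2 fold change was 3.05 (SE 0.11, adjusted p = 3.54e-11, edgeR). RPL22 itself, on chromosome 1 from 6185020 to 6209389, encodes an RNA-binding protein of the outer face of the large subunit. It moved the other way, from 228, 227 and 245 CPM to 158, 135 and 156 CPM, with every shBry value below every shNC value. Its log2 fold change was -0.64 (SE 0.08, adjusted p = 2.28e-05, edgeR), and without shBry replicate 2 it was -0.58, inside the 1.5-fold limit. Of the reads on the pair, RPL22L1 took 8.89%, 9.78% and 10.3% in shNC and 58.8%, 58.3% and 56.8% in shBry, so the paralog passed its parent in counts in each shBry library. The coding sequences of the pair are 66.6% identical, and 4.73% of the 50-base stretches of RPL22L1 occur in transcripts of other genes. For RPL22 that share is 96.7%, and its pseudogene rows held 7.73% of the reads on gene and pseudogenes together.

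The other paralogs moved less. RPL26L1, on chromosome 5 from 172958729 to 172969771, is the paralog of RPL26, a protein near the exit of the nascent chain. It rose from 45.9, 44.3 and 48.9 CPM to 78.7, 63.3 and 76.2 CPM. Its log2 fold change of 0.65 (SE 0.10, adjusted p = 8.69e-05, edgeR) became 0.59 and lost its call without shBry replicate 1. Its parent RPL26 was far more abundant at the same coding length, with 1354 to 1439 CPM in shNC and 1626 to 2139 CPM in shBry, and had a log2 fold change of 0.41 (adjusted p = 2.17e-03). RPL26L1 therefore took 3.21% ± 0.0704 of the pair in shNC and 3.77% ± 0.229 in shBry (SD, n = 3). The coding sequences of the pair are 84.1% identical, and 49.7% of the 50-base stretches of RPL26L1 occur in transcripts of other genes. Whether reads of other genes were counted on RPL26L1 was not tested.

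RPL7L1, a relative of RPL7 with 55.2% identical coding sequence, had 294 to 310 CPM in shNC and 399 to 462 CPM in shBry without overlap, a log2 fold change of 0.53 (adjusted p = 7.56e-05) that stayed inside the 1.5-fold limit. RPL7 had 0.24 (adjusted p = 0.0258). RPL39L, known from the testis and from cancer cells, had 31.4, 38.8 and 31.4 CPM in shNC and 44.0, 38.8 and 52.1 CPM in shBry. Its lowest shBry value and its highest shNC value nearly met, at a log2 fold change of 0.41 (SE 0.12, adjusted p = 0.0126), and RPL39 had 0.19 (adjusted p = 0.332).

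A pair of paralogs lay lower in shBry. RPL36AL had 51.0 to 51.8 CPM in shNC and 43.2, 34.5 and 42.3 CPM in shBry (log2 fold change -0.36, adjusted p = 8.1e-03), while RPL36A had 0.18 (adjusted p = 0.258). RPS27L, known as a target gene of p53, had 31.7 to 35.1 CPM in shNC and 24.97 to 28.7 CPM in shBry (log2 fold change -0.27, adjusted p = 0.0422), and RPS27 had -0.11 (adjusted p = 0.365). Neither paralog reached the 1.5-fold limit. RPL3L, known from striated muscle, and RPL10L, known from the testis, were the genes at 0 counts, while their parents RPL3 (0.38, adjusted p = 1.65e-03) and RPL10 were abundant.

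Over the 6 pairs with counts, the share of the paralog did not overlap between groups for RPL22L1, RPL26L1, RPL36AL and RPL7L1. Each of these gave p = 0.1 in an exact two-sided permutation test, the smallest value that 3 against 3 libraries allow, and 0.15 after adjustment over the 6 pairs. RPL7L1 went from 32.1% ± 1.22 to 36.5% ± 0.431 of its pair and RPL36AL from 80.0% ± 1.08 to 73.2% ± 0.658 (SD, n = 3). For RPS27L, at 11.3% ± 0.733 and 10.3% ± 0.699, and RPL39L, at 66.3% ± 2.33 and 69.3% ± 2.61 (SD, n = 3), the groups overlapped (p = 0.2 and 0.3, exact permutation tests). The log2 ratio of paralog to parent changed by 3.69 for RPL22L1 and by between -0.55 and 0.29 for the other pairs. The share of coding 50-base stretches found in transcripts of other genes was 64.8% for RPL7L1, 36.1% for RPL36AL and 0% for RPL39L and RPS27L. Whether paralog rows hold reads of other genes was not tested. The shares and ratios of the pairs count the parent's own row only. Pseudogene rows held 73.5% of the reads on RPL36A and its copies, and 83.95% of those on RPL39 and its copies. With such reads counted for the parent, the shares of RPL36AL and RPL39L would be smaller. To a lesser degree this holds for the other pairs, where the pseudogene rows held 22% for RPS27, 18.2% for RPL7, 12.9% for RPL26 and 7.73% for RPL22.

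**Figure D3:**
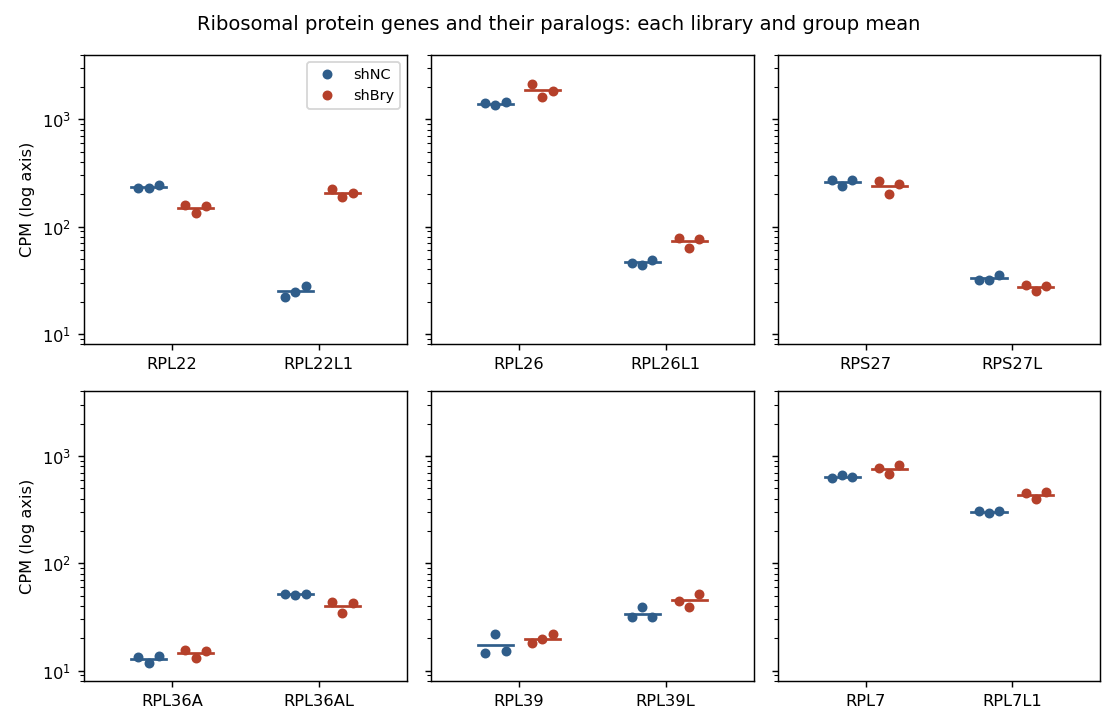
CPM on a log axis of the 6 parent and paralog pairs with counts, each point a library and each line a group mean, shNC in blue and shBry in red. RPL22L1 rises from between 22.2 and 28.02 CPM in shNC to between 188 and 226 CPM in shBry. RPL22 falls to between 135 and 158 CPM in shBry. In the other pairs the log2 ratio of paralog to parent changes by between -0.55 and 0.29.

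The second largest rise was that of RPL10A, on chromosome 6 from 35468408 to 35470785, which encodes the protein of the L1 stalk, where the spent transfer RNA leaves the ribosome. It had 713, 708 and 668 CPM in shNC and 1673, 1294 and 1583 CPM in shBry. The lowest shBry library was well above the highest shNC library (log2 fold change 1.12, SE 0.10, adjusted p = 2.91e-07, edgeR). RPL22L1 and RPL10A were the members called under all 11 other settings tried and with each library left out, where RPL10A ranged from 1.04 to 1.21.

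Of the other large subunit genes called higher, RPL12, on chromosome 9 from 127447674 to 127451405, encodes the protein at the base of the stalk that recruits elongation factors. Its CPM were 1386, 1369 and 1359 in shNC and 2500, 1893 and 2104 in shBry (log2 fold change 0.66, adjusted p = 4.93e-05). RPL10, on chromosome X from 154389955 to 154409168, is added late in assembly and lies close to the catalytic center. It had 926, 1009 and 900 CPM in shNC and 1591, 1357 and 1473 CPM in shBry (log2 fold change 0.64, adjusted p = 1.97e-05). Exons of other genes, mainly DNASE1L1, overlap 55.5% of its exon bases, and DNASE1L1 had 59.1 ± 6.35 CPM in shNC and 67.7 ± 4.67 CPM in shBry (SD, n = 3). RPL37, on chromosome 5 from 40825262 to 40835335, encodes a small zinc-binding protein. It had 1102, 1176 and 1110 CPM in shNC and 1793, 1464 and 1971 CPM in shBry (log2 fold change 0.63, adjusted p = 1.13e-04). All these groups were apart in every library, but the calls sat close to the fold limit. RPL12 (0.54) and RPL10 (0.58) lost theirs without shBry replicate 1, RPL10 also without shNC replicate 3 (0.58), and RPL37 without shBry replicate 3 (0.53).

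Lower in shBry were RPL4 and RPL7A besides RPL22. RPL4, on chromosome 15 from 66498015 to 66524532, lines the tunnel through which the new protein leaves. Its CPM were 2235, 2286 and 2178 in shNC and 1425, 1215 and 1420 in shBry (log2 fold change -0.72, SE 0.08, adjusted p = 5.62e-06, edgeR), with a call under every left-out library. RPL7A, on chromosome 9 from 133348214 to 133351426, hosts 4 small nucleolar RNA genes and starts with a run of 16 pyrimidines, printed above. It went from 377, 349 and 353 CPM to 265, 210 and 241 CPM, again without overlap, at a log2 fold change of -0.59 (adjusted p = 7.55e-05). Its pseudogene rows held 38.6% of the reads on gene and pseudogenes, and with them added it had -0.57 and no call. It also lost the call without shBry replicate 2 (-0.53) and without shNC replicate 1 (-0.57). RPL15, which lay between 1123 and 1211 CPM in shNC and between 712 and 831 CPM in shBry, missed the limit at -0.56 (adjusted p = 5.47e-05).

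In the small subunit, RPS12, on chromosome 6 from 132814441 to 132817564, encodes a protein of the subunit's head. It rose from 319, 312 and 296 CPM to 564, 429 and 536 CPM (log2 fold change 0.72, SE 0.10, adjusted p = 2.61e-05, edgeR). RPS29, on chromosome 14 from 49570984 to 49599164, codes for a zinc-binding protein of the same region. Its values were 46.0, 52.0 and 42.2 CPM in shNC and 74.1, 66.6 and 83.7 CPM in shBry (log2 fold change 0.68, adjusted p = 1.07e-04). Both kept their call with each library left out.

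Of the small subunit genes called lower, RPS14, on chromosome 5 from 150442635 to 150449756, sits on the platform of the subunit and is the gene whose loss is known from myelodysplasia with a deletion in the long arm of that chromosome. Its values fell from 998, 1134 and 1010 CPM to 678, 565 and 670 CPM (log2 fold change -0.72, SE 0.09, adjusted p = 1.36e-05, edgeR). The gene shares little coding sequence with other transcripts (11.9% of 50-base stretches) and kept its call with each library left out.

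Just past the fold limit, and called, were RPL7A at -0.59 and RPL37 at 0.63 on the log2 scale. Just short of it, and not called, were RPL31 and RPS23, both at 0.58, RPL15 at -0.56 and RPL37A at 0.55. RPS23 lies at the decoding center and RPL31 near the tunnel exit. In each direction these values differ by no more than their standard errors of 0.08 to 0.10, so the number of called genes depends on where the limit is set.

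The stalk proteins RPLP0, RPLP1 and RPLP2, which bring elongation factors to the ribosome, had log2 fold changes of 0.09, 0.35 and 0.09, and only RPLP1 reached an adjusted p below 0.05 (0.0102). RPLP0 had 3189 to 3472 CPM in shNC and 3127 to 4067 CPM in shBry, and its groups overlapped. RPSA, which is also known as a laminin receptor precursor, had 1896 to 2059 CPM in shNC and 1691 to 2073 CPM in shBry (log2 fold change -0.09, adjusted p = 0.398). RPS6, the substrate of the S6 kinases, had 509 to 563 CPM in shNC and 473 to 603 CPM in shBry, a log2 fold change of 0.01 ± 0.09 (SE). RPS27A, made as a fusion with ubiquitin, had 274 to 281 CPM in shNC and 336 to 468 CPM in shBry (0.51, adjusted p = 9.08e-04). Without shBry replicate 2 it was at 0.60 and called. RPL5 and RPL11, which bind MDM2 together with a small ribosomal RNA, were higher by 0.40 (adjusted p = 2.48e-03) and 0.30 (adjusted p = 0.0142) on the log2 scale, both without overlap of the groups.

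Members of lists written from general knowledge showed rises and falls side by side. Of 20 genes mutated in Diamond-Blackfan anemia, an inherited failure of red cell production, 10 were higher (50%) and 4 lower (20%) at an adjusted p below 0.05, beside 28% and 25.3% of all tested genes, with a median of 0.22. RPS29 was among the called genes of this list, and RPL15 had the lowest value. Of 14 proteins that can bind MDM2, the ubiquitin ligase of p53, 5 were higher (35.7%) and 2 lower (14.3%) at that threshold, with a median of 0.03. RPS14, which was lower, was the only called gene of this list. MDA-MB-231 cells are known to carry mutant p53. Where a list had calls in 1 direction only, DESeq2 and limma-voom gave 0 calls in the other direction as well, and so did an unadjusted p below 0.05 with the same fold limit.

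Levels per length, CPM divided by the kilobases of coding sequence, differed widely between these genes. Reads on untranslated bases are counted too, so a short coding sequence can raise this value. The highest were RPL37 at 4934, RPS2 at 4242 and RPL26 at 3750 CPM per coding kb, and the median of the 82 tested genes was 1260. RPS2, a protein of the messenger RNA entry channel, had 3197 to 3561 CPM in shNC and 3596 to 4642 CPM in shBry (log2 fold change 0.29, adjusted p = 0.018). The lowest were RPS9 at 3.02 and RPS25 at 22.6 CPM per coding kb. Apart from paralogs, 7 of 76 tested genes were below 100 CPM per coding kb, among them RPS9, RPS25, RPL36A, RPS26, RPL9 and RPL21, and the next gene, RPL39, had 121.

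These 7 genes had sequence in common with other transcripts. Between 33.0% and 100% of their coding 50-base stretches occurred in transcripts of other genes, and 5 of the 7 had more reads on rows of their own pseudogenes than on the gene. The rows RPS9P4 and RPS9P2 had 230 ± 12.4 and 173 ± 15.1 CPM in shNC (SD, n = 3), and pseudogene rows held 99.5% of the reads on RPS9 and its copies. RPS26 had 93.4% of its reads there, RPL21 75.8%, RPL36A 73.5% and RPS25 53.96%. Outside the 7, RPL39 had 83.95% at 121 CPM per coding kb, and RPL41 had 68.4% at 2126 CPM per coding kb. Only 75 of the 469 transcript bases of RPL41 are coding, and its mean level was 159 CPM. Genes with under 10%, 10% to 50% and 50% or more of shared stretches had medians of 1361, 1794 and 1123 CPM per coding kb (13, 24 and 39 genes, paralogs left out). RPS2, with 78.0% shared, had the second highest level. How reads that fit several places were counted is not given in the sources used here, so the levels and differences of these low genes are uncertain.

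**Figure D4:**
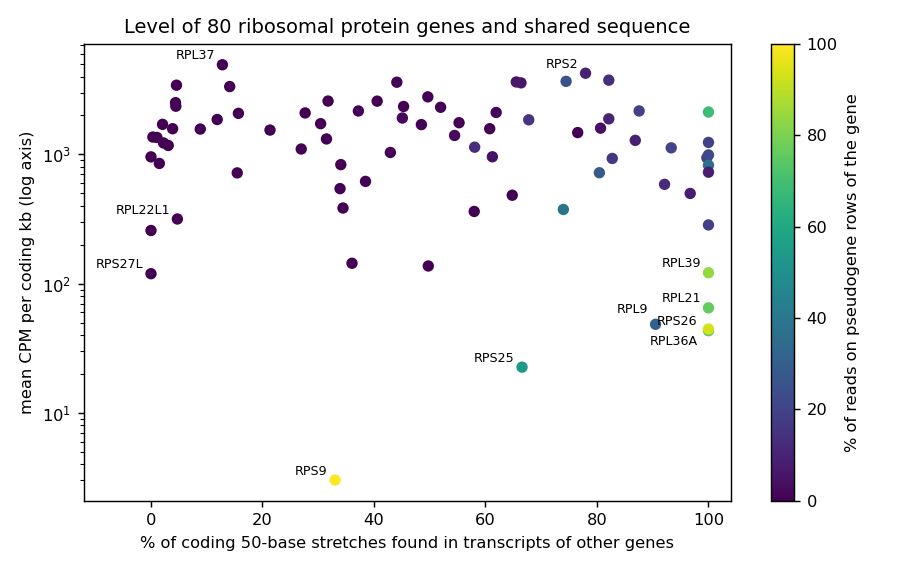
Mean level over the 6 libraries in CPM per coding kb on a log axis against the percentage of coding 50-base stretches found in transcripts of other genes, for 80 of the 82 tested genes. Color gives the percentage of reads on pseudogene rows of the gene. RPS9, at 3.02 CPM per coding kb and 99.5% on pseudogene rows, lies lowest, and genes with 100% shared sequence spread from 43.2 (RPL36A) to 2126 (RPL41).

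RPS9 also lies in a part of chromosome 19 where neighbours had few reads. It spans 54200742 to 54249003, and of 15 coding genes within 100 kb, 11 had at most 3 counts in every library. Among these were NDUFA3, TFPT and TSEN34, whose products act in respiration, chromatin and transfer RNA splicing, with 0 to 3 counts. The receptor genes of the LILR family, known from leukocytes, were at 0. Of the genes in the same window, CNOT3 had 367 to 463 counts and MBOAT7 87 to 177. The log2 fold change of the RPS9 row was -0.15 with an SE of 0.28, so no difference was detectable from its few reads. The pseudogene rows, which held nearly all reads, were lower in shBry without overlap of the groups. RPS9P4 had -0.22 (adjusted p = 0.0399, edgeR) and RPS9P2 -0.45 (adjusted p = 1.73e-03, edgeR). Whether those reads came from RPS9 was not tested. RPS25, at 6.86 to 10.02 CPM, had -0.19 with an SE of 0.16.

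Readthrough rows also held counts of members. RPS10-NUDT3, a transcript that joins RPS10 to its neighbour, was listed at 552 ± 8.02 CPM in shNC and 468 ± 73.3 CPM in shBry (SD, n = 3). RPS10 itself had 661 to 684 CPM in shNC and 463 to 662 CPM in shBry. RPL36A-HNRNPH2, at 29.6 ± 2.61 CPM in shNC and 26.1 ± 1.54 CPM in shBry (SD, n = 3), stood beside RPL36A at 11.8 to 13.5 and 13.1 to 15.5 CPM. RPL17-C18orf32 had 64.4 ± 3.12 and 64.6 ± 7.52 CPM (SD, n = 3), and RPL17 had 126 to 167 CPM over all libraries. Reads of the shared exons cannot be assigned to gene or readthrough from these counts.

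The table listed 1920 rows named as pseudogenes of 77 members, of which 487 had counts and 124 were tested. They held 0.491% to 0.573% of all counts per library. Of the tested rows, 16 were called higher (12.9%) and 6 lower (4.84%) in shBry, a smaller share than the 17.1% and 15.2% of all tested genes. Several had the direction of their parent, such as RPL12P4 and RPL12P16 (0.82 and 0.72) or RPL4P4 and RPL22P1 (both -0.77). Other called rows went against it, such as RPL13AP20 (-0.82, RPL13A 0.26), RPL32P3 (-0.68, RPL32 0.21) and RPS10P3 (0.665, RPS10 -0.27). All these examples were chosen after their values were seen. Since pseudogene and parent share sequence, reads of the parent may have been counted there, and this was not tested. With pseudogene counts added to each parent, 9 members were called higher and 4 lower.

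The machinery that makes ribosomes is listed beside the proteins. Of 60 ribosome biogenesis factors, 24 were called higher (40%, against 17.1% of all tested genes) and 4 lower (6.67%, against 15.2%), with a median log2 fold change of 0.34. RRP12, a factor of small subunit maturation and export, rose from 59.8 to 161 CPM (log2 fold change 1.43, adjusted p = 1.57e-08, edgeR). NMD3, the adapter that carries the large subunit out of the nucleus, went from 22.7 to 66.3 CPM (log2 fold change 1.55, adjusted p = 6.4e-08). The 4 called lower were FBL, IMP3, NHP2 and UTP20, named after their values were seen, with log2 fold changes between -1.28 and -0.68. FBL, at -1.28 (SE 0.39), had few reads and overlapping groups, with 3.26 to 11.9 CPM in shNC and 2.11 to 5.18 CPM in shBry. DESeq2 called 3 genes of this list lower. Of 13 tested genes of RNA polymerase I, which transcribes ribosomal RNA, and its factors, 5 were called, each higher (38.5%, against 17.1% of all tested genes called higher), and among them TAF1B had 0.98 (adjusted p = 1.78e-05) and TAF1D 1.46 (adjusted p = 3.66e-05), at a list median of 0.13.

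Regulators of TOP mRNA translation in the mTOR pathway had a median of -0.01 over 15 genes. EIF4EBP1, a repressor of cap-dependent translation, rose from 174 to 404 CPM (log2 fold change 1.21, adjusted p = 1.03e-07, edgeR), and its relative EIF4EBP2 fell with a log2 fold change of -0.70 (adjusted p = 3.89e-05). No other gene of this list was called, which makes 13.3% called against 32.4% of all tested genes. Of 7 dedicated chaperones of ribosomal proteins, PDCD2 (0.64, adjusted p = 1.02e-05) and PDCD2L (0.72, adjusted p = 2.01e-04) were called higher (28.6%, against 17.1% of all tested genes), and 3 others were lower at an adjusted p below 0.05 inside the fold limit.

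Of 17 elongation factors and other TOP genes, 1 was called (5.88%, against 32.4% of all tested genes), EIF3L, at -0.90 (adjusted p = 5.49e-07, edgeR). TPT1, a classic TOP mRNA, had 0.56 (adjusted p = 2.26e-05) and stayed inside the limit, and the median was 0.07. FAU, which codes for a further ribosomal protein made as a fusion, had -0.19 (adjusted p = 0.10) and was not called.

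Mitochondrial ribosomal proteins, which form the separate ribosome of that organelle, had a median log2 fold change of -0.10, beside 0.21 for the cytosolic genes, with 32 of 76 tested genes above 0. Of the 76, 2 passed both limits as higher (2.63%) and 9 as lower (11.8%), both below the 17.1% and 15.2% of all tested genes. At an adjusted p below 0.05, 17 were higher (22.4%) and 29 lower (38.2%), beside 28% and 25.3% of all tested genes. The difference between the families was not tested.

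**Figure D5:**
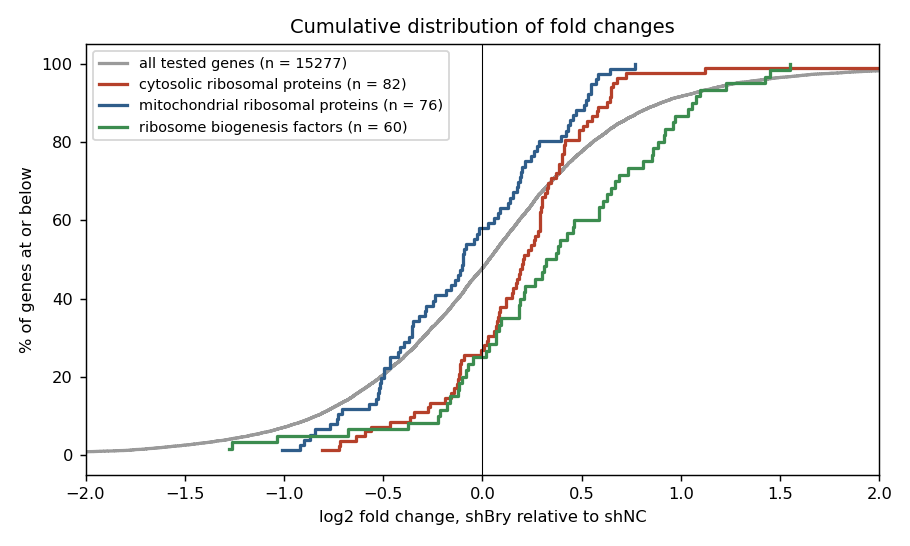
Cumulative percentage of genes at or below each log2 fold change of shBry relative to shNC, for all 15277 tested genes (grey), 82 cytosolic ribosomal protein genes (red), 76 mitochondrial ribosomal protein genes (blue) and 60 ribosome biogenesis factors (green). The axis is drawn from -2 to 2 and leaves out RPL22L1 at 3.05. The medians are 0.03, 0.21, -0.10 and 0.34.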

How the data were processed

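The authors deposited raw counts, whole numbers of reads per gene without normalization, made with HISAT2 2.0.4 and HTSeq on GRCh38, per the submitters' processing notes. The annotation, strand setting, multiple mapping and statistical test are not given in the sources used here. Samples were grouped by the hairpin in their labels. edgeR 4.0.16 (R 4.3.3) was used to drop low genes (filterByExpr, minimum count 10), to scale libraries by TMM and to run its quasi-likelihood test, with Benjamini-Hochberg adjustment over 15277 genes. Calls needed an adjusted p below 0.05 and the study's fold change limit of 1.5. The standard error was the log2 fold change divided by the square root of F. CPM are TMM-normalized. A count of 0 allows up to 3 counts (0.131 to 0.155 CPM).

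Positions, coding sequences, shared 50-base stretches and overlaps came from GENCODE 29, matched by symbol. Start windows came from RefSeq. Members named singly were those called, the 5 largest rises and falls, paralogs and their parents, stalk genes, RPSA, RPS27A, RPS6, RPL5, RPL11 and the 3 highest and lowest levels per length, plus the 2 smallest adjusted p of each other list. Members and lists were chosen with earlier results of these data known. Alternatives were other scalings, filters, limits, unadjusted p, pseudogene counts added, DESeq2 1.42.0, voom of limma 3.58.1, a replicate block and left-out libraries. The test was tried on simulated data. A few genes that fall under this naming rule are not reported here.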

Additional observations from a re-analysis of the deposited data

How the results depend on the processing

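The numbers of called ribosomal protein genes rested mostly on the fold change limit. Without a limit, 39 were higher (47.6%) and 11 lower (13.4%), beside 28% and 25.3% of all tested genes. Of the other lists, 51 genes were higher (44.7%) and 20 lower (17.5%) without a limit. At 1.5, 32 (28.1%) and 6 (5.26%) of those genes were called, beside 17.1% and 15.2% of all tested genes. With a limit of 2, 2297 of all 15277 tested genes were called. Of the 82 tested members, 2 were higher and 0 lower, and of the 114 tested genes of the other lists 10 and 3. That count of 0 was also 0 at an unadjusted p below 0.05 and by DESeq2 and limma-voom, while 11 members were lower at an unadjusted p without a limit. Across the other tools, scalings, filters, adjustment and pseudogene counts, 9 were higher and 4 to 6 lower. Those fits called 4432 to 5334 of 13859 to 25518 tested genes. The median log2 fold change of the members stayed between 0.18 and 0.21, with that of all tested genes between -0.02 and 0.03.

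With each library left out in turn, 5 to 13 members were called higher and 3 to 6 lower, and the median ranged from 0.15 to 0.28. Of the other lists, 27 to 33 genes were higher and 6 to 8 lower. In these fits, 4587 to 5025 of 15493 to 15691 tested genes were called. The difference in the share of counts ranged from 0.455 to 0.981 percentage points. Of the 14 called members, 7 were called in all 6 fits, among them RPL22L1, RPL10A, RPS12, RPS29, RPL4 and RPS14. The cause was not tested beyond the fewer samples. For the 47 genes named by rule, 756 values kept their side of the threshold, 28 lost and 15 gained the call. No gene called in the main fit or in the other setting changed direction. A change of direction in a gene called in neither was counted among the 756. Whether the replicate numbers pair the samples is not known from the labels. Same-number correlations were 0.183, -0.084 and -0.028, and only replicate 1 matched its own number best. The fit with the number as a block called the same 9 and 5 members, with a median of 0.205, and 4914 genes in all in place of 4945.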

Other observations

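Among the pseudogene rows, RPLP0P2, named for the stalk gene RPLP0, had 30, 40 and 31 counts in the shBry libraries and 1, 1 and 0 in the shNC libraries, while RPLP0 itself had overlapping groups and a log2 fold change of 0.09. RPS24P15 had the opposite pattern, with 1, 0 and 4 counts in shBry and 13, 14 and 18 in shNC, and RPS24 had 0.15. Both rows were chosen after their values were seen, and their counts are too few for a precise fold.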
